A study of Homo sapiens with 16 samples.

Results

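The regions described here are promoters of protein-coding genes that carried less H3K27ac in HEK293 cells, a human embryonic kidney line, after sorbitol than after vehicle. A member is an interval of the deposited peak set on chromosomes 1 to 22 or X within 1 kb of the start of a protein-coding transcript in GENCODE 44. Intervals near a gene whose symbol begins with ZNF, and intervals in the YAP1 gene, were left out. Counts were divided by each library's total over those chromosomes and are given as CPM. A member had at least 60 H3K27ac counts over 4 libraries, a ratio of mean sorbitol CPM to mean vehicle CPM of at most 0.59, and both sorbitol libraries below both vehicle libraries. Of 74404 intervals, 17983 lay at such promoters, 536 were left out for a ZNF symbol and 1 for the YAP1 gene. Of the 17446 that remained, 1067 had too few counts and 16379 were counted. Members numbered 1341, which is 8.19% of the counted promoters and 1.8% of all intervals, and they were nearest to the starts of 1116 genes. Because H3K27ac chose the members, its values are a description and carry no test. CTCF, RAD21 and YAP1 played no part in the choice and were tested.

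H3K27ac is an acetyl group on the tail of histone H3 that EP300 and CREBBP add and histone deacetylases remove. It marks promoters and enhancers in use, and bromodomain proteins of the BRD2 family bind acetylated histones. CTCF is a zinc finger protein that binds DNA and stops cohesin at the anchors of chromatin loops, and RAD21 is a subunit of the cohesin ring. YAP1 is a coactivator of transcription that reaches DNA mainly through TEAD factors.

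All 16 libraries came from HEK293 cells of genotype eGFP-YAP, and what drives the tagged protein, and whether the line is a single clone, is not given in the sources used here. Sorbitol was given at 200 mM for 1 h, a hyperosmotic stress that draws water out of cells, and the series text puts 1 h without serum before it. In CUT&Tag, an antibody holds a Tn5 transposase near its target, so that nearby DNA is cut, tagged and sequenced. The 8 groups were vehicle and sorbitol for each of 4 targets, namely H3K27ac, CTCF, RAD21 and eGFP-YAP, which was read with an antibody to GFP and is called YAP1 here, with 2 libraries per group. Column headers give vehicle libraries an earlier time, although per the labels untreated cells were collected in parallel. Nothing states that replicates came from separate cultures, so the p-values measure only the spread between these libraries. A control library made with a non-specific antibody was not used here.

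The promoter sequences below are shown for the members that the results turn on. Each is the RefSeq window on GRCh38.p14 from 250 bases before to 50 bases after a gene's start, printed 5′ to 3′ on the gene's strand. Capitals mark exact matches, on either strand, to 14 short motifs that are named further on. The first 4 belong to the members with the lowest H3K27ac ratios among all 1341:
WDR1 promoter, chr4:10116750-10117049, minus strand: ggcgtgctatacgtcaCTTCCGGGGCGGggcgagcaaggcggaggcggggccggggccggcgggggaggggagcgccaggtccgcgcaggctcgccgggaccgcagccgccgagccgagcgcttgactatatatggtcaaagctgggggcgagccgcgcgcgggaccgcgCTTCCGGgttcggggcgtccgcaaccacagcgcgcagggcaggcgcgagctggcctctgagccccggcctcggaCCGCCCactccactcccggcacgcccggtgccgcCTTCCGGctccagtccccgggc
ING1 promoter, chr13:110712373-110712672, plus strand: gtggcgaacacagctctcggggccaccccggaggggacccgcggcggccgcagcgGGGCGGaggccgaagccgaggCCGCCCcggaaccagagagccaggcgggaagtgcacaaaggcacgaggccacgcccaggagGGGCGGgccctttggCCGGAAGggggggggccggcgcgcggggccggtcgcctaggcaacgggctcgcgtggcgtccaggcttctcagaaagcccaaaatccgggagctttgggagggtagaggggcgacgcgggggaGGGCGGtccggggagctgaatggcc
SOX12 promoter, chr20:325302-325601, plus strand: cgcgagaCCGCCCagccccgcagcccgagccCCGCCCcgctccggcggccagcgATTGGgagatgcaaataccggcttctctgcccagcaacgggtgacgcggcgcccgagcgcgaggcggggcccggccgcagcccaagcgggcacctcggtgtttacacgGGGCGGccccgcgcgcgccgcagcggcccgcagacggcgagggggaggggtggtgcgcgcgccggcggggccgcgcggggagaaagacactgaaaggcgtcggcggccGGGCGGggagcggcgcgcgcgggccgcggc
LCA5L promoter, chr21:39445729-39446028, minus strand: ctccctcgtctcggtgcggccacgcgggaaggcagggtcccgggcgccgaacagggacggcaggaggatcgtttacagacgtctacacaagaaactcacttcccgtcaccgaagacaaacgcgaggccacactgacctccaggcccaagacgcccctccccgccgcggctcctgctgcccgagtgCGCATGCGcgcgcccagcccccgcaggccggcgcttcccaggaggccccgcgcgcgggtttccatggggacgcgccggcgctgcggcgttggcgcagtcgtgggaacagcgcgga
The next pair, TMEM238 and FBLL1, had the largest CTCF rises among members, and SPDYE16 and ZC3H10 the largest CTCF falls:
TMEM238 promoter, chr19:55384243-55384542, minus strand: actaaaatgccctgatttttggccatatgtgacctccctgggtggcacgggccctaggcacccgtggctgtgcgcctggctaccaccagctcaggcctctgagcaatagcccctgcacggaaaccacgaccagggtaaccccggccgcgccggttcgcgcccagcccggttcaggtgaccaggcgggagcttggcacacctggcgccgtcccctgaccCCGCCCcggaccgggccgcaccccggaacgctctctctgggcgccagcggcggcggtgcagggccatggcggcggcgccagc
FBLL1 promoter, chr5:168529055-168529354, plus strand: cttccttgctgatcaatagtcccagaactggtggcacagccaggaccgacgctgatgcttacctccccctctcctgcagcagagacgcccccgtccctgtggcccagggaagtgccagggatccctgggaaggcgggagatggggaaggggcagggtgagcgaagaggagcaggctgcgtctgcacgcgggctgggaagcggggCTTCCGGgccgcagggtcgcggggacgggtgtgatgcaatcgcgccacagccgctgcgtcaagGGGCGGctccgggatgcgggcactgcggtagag
SPDYE16 promoter, chr7:76543248-76543547, minus strand: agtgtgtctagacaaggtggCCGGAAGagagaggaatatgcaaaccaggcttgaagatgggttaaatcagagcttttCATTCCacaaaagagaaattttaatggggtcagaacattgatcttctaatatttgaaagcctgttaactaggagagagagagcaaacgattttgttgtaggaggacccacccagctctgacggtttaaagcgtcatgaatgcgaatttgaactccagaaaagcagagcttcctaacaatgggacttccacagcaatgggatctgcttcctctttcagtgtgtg
ZC3H10 promoter, chr12:56118016-56118315, plus strand: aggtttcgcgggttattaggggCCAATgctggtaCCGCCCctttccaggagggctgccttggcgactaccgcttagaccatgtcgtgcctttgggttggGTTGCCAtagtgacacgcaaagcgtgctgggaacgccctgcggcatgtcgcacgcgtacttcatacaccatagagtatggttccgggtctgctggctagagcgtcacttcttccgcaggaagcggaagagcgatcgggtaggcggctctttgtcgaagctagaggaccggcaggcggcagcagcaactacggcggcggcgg
The last 4 were chosen after their values were seen, because HEXIM1, GADD45B and GLUL rose for CTCF, RAD21 and YAP1 together and H2BC17 stands for the histone genes, the list with the largest share of members:
HEXIM1 promoter, chr17:45148225-45148524, plus strand: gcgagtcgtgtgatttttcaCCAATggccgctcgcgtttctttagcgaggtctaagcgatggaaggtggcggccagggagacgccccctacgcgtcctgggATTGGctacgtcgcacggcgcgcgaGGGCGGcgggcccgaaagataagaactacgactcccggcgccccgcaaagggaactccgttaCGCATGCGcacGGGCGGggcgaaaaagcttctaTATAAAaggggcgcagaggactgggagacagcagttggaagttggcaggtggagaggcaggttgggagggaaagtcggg
GADD45B promoter, chr19:2475877-2476176, plus strand: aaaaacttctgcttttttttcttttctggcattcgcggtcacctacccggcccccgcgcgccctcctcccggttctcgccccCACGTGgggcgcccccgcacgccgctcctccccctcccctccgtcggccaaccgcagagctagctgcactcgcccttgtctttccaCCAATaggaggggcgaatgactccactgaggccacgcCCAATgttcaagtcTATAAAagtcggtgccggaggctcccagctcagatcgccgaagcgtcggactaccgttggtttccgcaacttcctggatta
H2BC17 promoter, chr6:27893175-27893474, plus strand: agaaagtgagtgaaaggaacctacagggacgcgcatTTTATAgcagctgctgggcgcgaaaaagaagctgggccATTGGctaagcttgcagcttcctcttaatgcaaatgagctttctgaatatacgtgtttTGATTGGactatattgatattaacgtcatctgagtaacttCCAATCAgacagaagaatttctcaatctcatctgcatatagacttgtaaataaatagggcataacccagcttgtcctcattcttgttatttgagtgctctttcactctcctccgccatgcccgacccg
GLUL promoter, chr1:182391741-182392040, minus strand: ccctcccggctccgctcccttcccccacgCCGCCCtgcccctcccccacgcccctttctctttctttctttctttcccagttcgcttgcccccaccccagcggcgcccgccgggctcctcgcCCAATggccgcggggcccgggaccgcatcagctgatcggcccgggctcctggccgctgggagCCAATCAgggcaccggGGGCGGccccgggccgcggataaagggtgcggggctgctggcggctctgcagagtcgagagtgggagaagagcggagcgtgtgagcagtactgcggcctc
The windows of HEXIM1, GLUL and TMEM238 lay inside the member intervals, and that of FBLL1 lay partly inside. The other windows lay beside or at the edge of the interval described. The H2BC17 window lay inside another H2BC17 member (chr6:27892815-27893879), and the ING1 window overlapped a further ING1 member (chr13:110712366-110712597). The GADD45B and HEXIM1 windows both hold TATAAA and CCAAT, and the H2BC17 window holds TATAAA and CCAATCA.

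Members differed in how much less H3K27ac they held: the median ratio was 0.498, with quartiles of 0.427 and 0.552 and a lowest value of 0.130. Of the members, 682 had a ratio of at most 0.50 and 72 of at most 0.30. The median member held 23.7 CPM in vehicle and 10.9 CPM in sorbitol, while the other 15038 counted promoters held a median of 32.5 CPM in both. The counted promoters as a whole had a median ratio of 1.00, and 8189 of them lay below 1. Members held 7.48% and 7.55% of all H3K27ac counts at counted promoters in the vehicle libraries, and 3.67% and 3.60% in the sorbitol libraries. These shares are taken inside each library and need no scaling between libraries.

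**Figure D1:**
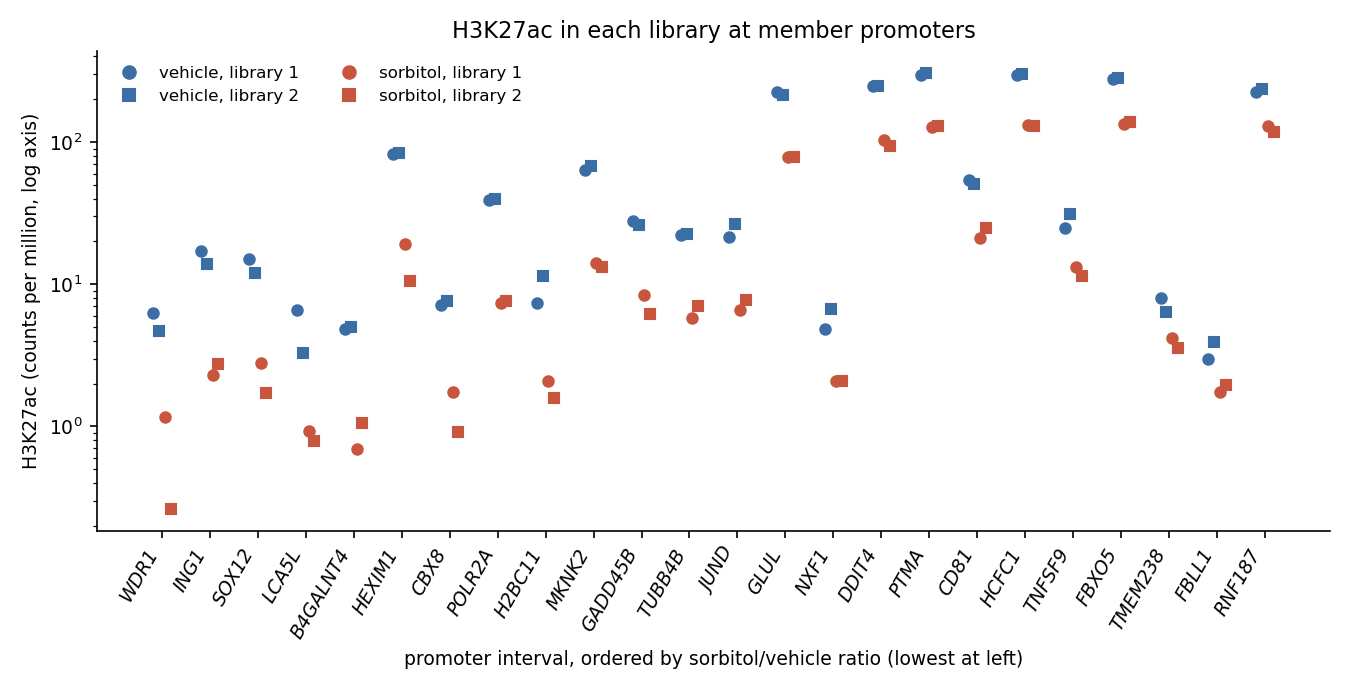
H3K27ac in CPM, on a log axis, in each of the 4 libraries for 24 genes with members, 1 interval per gene, ordered by the sorbitol to vehicle ratio. Circles and squares are libraries 1 and 2, blue is vehicle and red is sorbitol. Both red marks lie below both blue marks at each gene, which the member rule required, from WDR1 (ratio 0.130) on the left to RNF187 (ratio 0.538) on the right.

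The lowest ratio was at WDR1, a gene for an actin-filament disassembly factor, in an interval 537 bases from the start (chr4:10117487-10117847). It held 6.24 and 4.70 CPM in vehicle and 1.16 and 0.262 CPM in sorbitol, the last of these from only 2 counts. ING1, a tumour suppressor that recruits a histone deacetylase complex, had 4 member intervals. At the lowest of them (chr13:110712875-110713324) H3K27ac was 17.01 and 13.8 CPM in vehicle and 2.313 and 2.75 CPM in sorbitol. SOX12, a transcription factor gene of the SOX family, also had 4 member intervals, and its lowest ratio was 0.166. The other intervals among the 12 lowest belonged to LCA5L, B4GALNT4, CBX8, H2BC11, HEXIM1, POLR2A and MKNK2 and to further ING1 sites, with ratios up to 0.210. Most of these held under 20 CPM in vehicle, and HEXIM1, MKNK2 and POLR2A stood out by their higher starting levels.

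Much more strongly acetylated promoters were members too. PTMA, the gene for the histone-binding protein prothymosin alpha, had the highest vehicle level of all members, 297 and 308 CPM, against 127 and 129 CPM in sorbitol (chr2:231706330-231708916). HCFC1, a chromatin adaptor for many transcription factors, held 296 and 299 CPM in vehicle and 132 and 129 CPM in sorbitol, in an interval shared with TMEM187. FBXO5, an inhibitor of the anaphase-promoting complex, went from 277 and 283 CPM to 135 and 139 CPM. The 2 libraries of a group differed far less than the groups did at these promoters. The member rule asked for such a gap in these same values, so this separation is no finding. The next in vehicle level were DDIT4, RNF187 and GLUL, with ratios of 0.397, 0.538 and 0.36. By vehicle level, the share of counted promoters that were members was 6.67% under 5 CPM, 12.7% from 5 to 10 CPM, 10.3% from 10 to 20 CPM, 7.57% from 20 to 50 CPM, 6.10% from 50 to 100 CPM, 8.40% from 100 to 200 CPM and 11.1% (12 of 108) above 200 CPM. The share did not follow the level in a single direction, and it was highest from 5 to 10 CPM. With the least vehicle signal, promoters reached the count minimum only through high sorbitol counts, so they could not be members. The lowest vehicle mean was 2.66 CPM among members and 0.157 CPM among other counted promoters. Under 5 CPM the median ratio was 1.22. The 6.67% there is thus partly set by the count minimum and cannot be compared with the shares above 5 CPM.

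Several promoters were split over more than 1 member: 181 genes had more than 1 and 935 had 1. LTBP4 and MXRA7 had 5 each, and ACTG1, BRD2, CIRBP, GSE1, ING1, MAZ, SOX12, UBE2M and VAV2 had 4 each. Such neighbouring intervals share a promoter and are not independent. At the edge of the rule, REX1BD and CPT1C were the last members inside, with ratios of 0.5897 and 0.5898, and MTRF1 and LRRC4B lay just outside, at 0.5901 and 0.5902. A further 11 promoters met the ratio but had overlapping libraries.

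Depth over chromosomes 1 to 22 and X was 6385919 to 8646007 counts per library for H3K27ac, 1841135 to 3765377 for CTCF, 644905 to 1491348 for RAD21 and 968631 to 2403948 for YAP1. The share of counts off those chromosomes moved with treatment for all targets but H3K27ac: 16.6 to 20.8% in vehicle and 35.1 to 36.1% in sorbitol for CTCF, 35.0 to 39.2% and 46.1 to 47.3% for RAD21, and 37.1 to 38.7% and 56.3 to 58.6% for YAP1. The share of counts inside the YAP1 gene, which these depths include, moved as well. It was 3.96 and 5.97% in vehicle and 17.2 and 17.3% in sorbitol for CTCF. For RAD21 it was 10.1 and 16.6% in vehicle and 19.8 and 19.3% in sorbitol. For YAP1 it was 18.4 and 19.3% in vehicle and 28.4 and 31.9% in sorbitol. For H3K27ac it lay between 0.508 and 0.540% in all libraries. The part of either shift in the results below was not tested. As a check of the label, the renal progenitor genes PAX2, LHX1 and EYA1 held promoter H3K27ac in vehicle, from 18.3 CPM for EYA1 to 45.4 CPM for LHX1 summed over promoter intervals. The colon markers VIL1, LGALS4 and CDH17, the blood markers PTPRC and CD3E and the hepatocyte markers ALB and APOA2 had no promoter interval. The colon factor CDX2 was an exception, at 152 and 148 CPM, and the fibroblast genes COL1A1 and DCN stood at 12.1 to 12.8 and 0.156 to 1.41 CPM. In single RAD21 and YAP1 libraries, 12 to 159 members had a count of 0, which limits what could be tested there.

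While these promoters had less H3K27ac, many of them gained CTCF signal. CTCF rose at 561 of 958 members tested (58.6%) and fell at 39 (4.07%) in edgeR's quasi-likelihood test at an adjusted p under 0.05 over all tested intervals. Over all 39261 intervals tested for CTCF, 19.5% rose and 20.7% fell. Among other counted promoters 3444 of 11591 rose (29.7%) and 804 fell. The median log2 fold change was 1.05 for members, 0.51 for other promoters and -0.06 for all intervals. In pairs of libraries with the same number, the members' median exceeded that of other promoters by 0.53 and 0.56. As a share taken inside each library, members held 8.49% and 8.39% of CTCF counts at counted promoters in vehicle and 13.997% and 14.03% in sorbitol. The CTCF consensus letters, with 0 mismatches, were found in 9 members (0.671%), against 231 of the other promoters (1.54%). An exact search misses CTCF sites that depart from these letters, and member intervals were narrower (median 733 against 1015 bp). The falls dropped to 24 without the first vehicle library and to 23 without the second.

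The size of these CTCF gains depended on how libraries were scaled and corrected. The main fit used TMM, which scales on the bulk of tested intervals. Scaling to total counts outside the YAP1 gene moved the median of all tested intervals from -0.06 to -0.50, and then 402 members rose, 78 fell, and their median was 0.61. Such scaling shifts members and other promoters alike, so it bears on the levels and not on the difference between these sets. With GC-corrected offsets 306 members rose, 97 fell and the median was 0.36, while the median of other promoters went from 0.51 to -0.02. The difference between the medians of members and other promoters was then 0.37, against 0.54 without that correction.

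RAD21 and YAP1 changes were called at far fewer members. Their libraries were shallower than the CTCF libraries of the same treatment, so numbers of calls cannot be compared between targets. RAD21 rose at 102 of 689 tested members (14.8%) and fell at 3, against rises at 3.34% and falls at 1.45% of all 17011 tested intervals and rises at 134 of 8157 other promoters (1.64%). The median log2 fold change for RAD21 was 0.66 in members and 0.20 in other promoters. YAP1 rose at 114 of 948 tested members (12.0%) and fell at 14 (1.48%), against rises at 5.34% and falls at 1.49% of all 22765 tested intervals and rises at 168 of 11569 other promoters (1.45%). The median YAP1 change was 0.04 in members and -0.10 in other promoters, so the members that rose were a minority. Members held 8.70% and 8.73% of RAD21 counts at counted promoters in vehicle and 12.3% and 12.5% in sorbitol. For YAP1 these shares were 10.1% in both vehicle libraries and 13.0% and 12.7% in the sorbitol libraries.

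The direction of the YAP1 result rests on the scaling. With scaling to total counts, 60 members rose and 196 fell for YAP1, the members' median was -0.63 and that of all intervals -0.70. Over all 22765 tested intervals 729 rose and 4128 fell in that fit. For RAD21 the same scaling gave 57 rises and 3 falls, a median of 0.43, and -0.24 for all intervals. GC-corrected offsets left 66 RAD21 rises and 110 YAP1 rises. YAP1 rises numbered 66 without the first vehicle library and 67 without the second, and YAP1 falls were 1, 2, 46 and 37 when each library was left out in turn (vehicle 1, vehicle 2, sorbitol 1, sorbitol 2). The RAD21 falls were lost without vehicle library 2 and numbered 5 without sorbitol library 1.

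**Figure D2:**
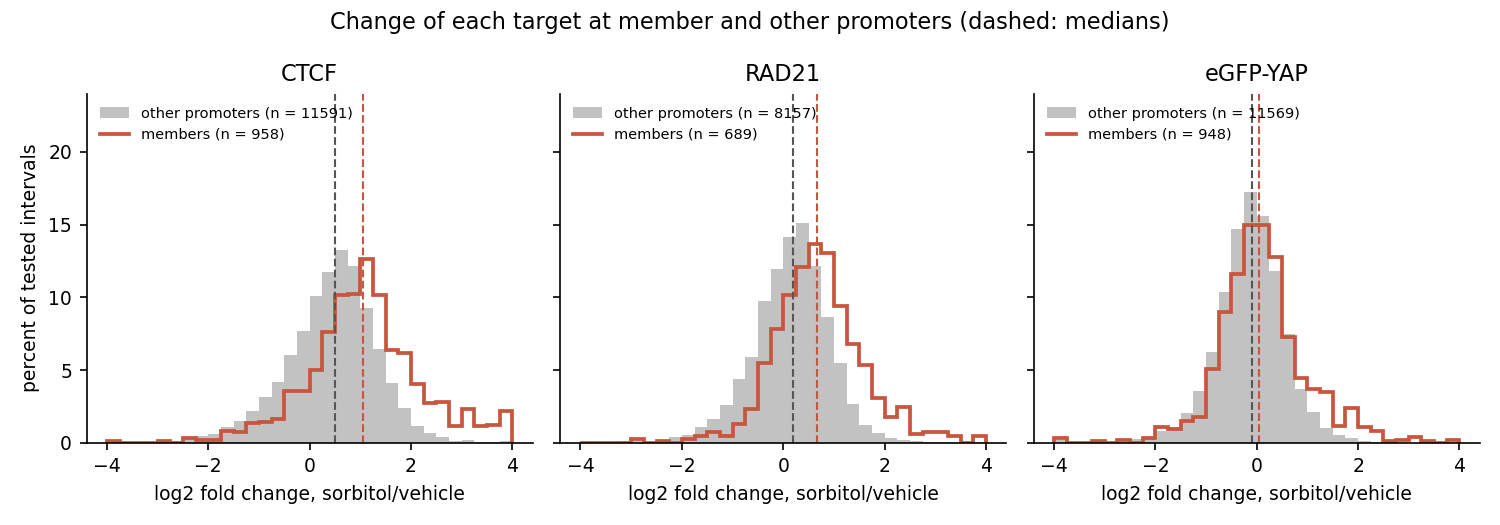
Distribution of log2 fold changes, sorbitol against vehicle, for members and for other counted promoters, as the percent of tested intervals in each bin, with 1 panel for CTCF, RAD21 and YAP1 each. Dashed lines are medians (members 1.05, 0.66 and 0.04; other promoters 0.51, 0.20 and -0.10) and values beyond ±4 are gathered in the end bins; the CTCF and RAD21 distributions of members lie to the right of those of other promoters.

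**Figure D3:**
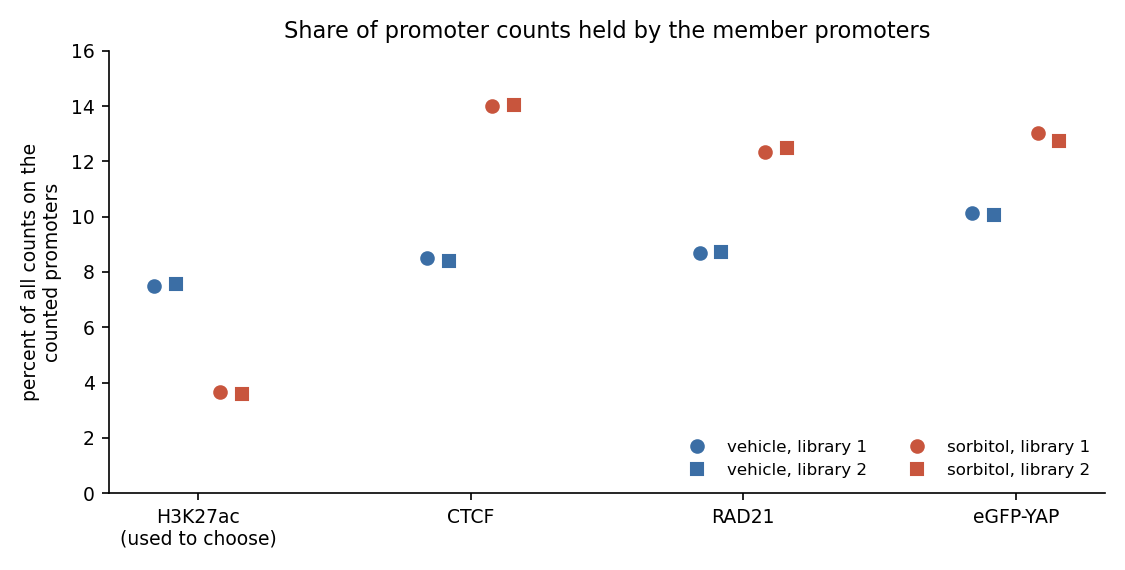
Share of the counts at counted promoters that fell in members, in percent, for each library of each target (blue vehicle, red sorbitol). The share is lower in both sorbitol libraries for H3K27ac and higher in both sorbitol libraries for CTCF, RAD21 and YAP1.

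The rises of the 3 targets fell on overlapping members. Of the 683 members tested for all 3, 68 rose for all 3, at 64 genes, and 570 members rose for at least 1 target. Of the RAD21 rises, 96.1% were also CTCF rises, and of the CTCF rises 17.5% were also RAD21 rises. For YAP1 and CTCF these shares were 95.6% and 19.4%. Of all members tested for CTCF, 58.6% rose. The same overlaps were not counted over other promoters or all tested intervals, so they cannot be called particular to members. Another 315 members had too few counts to be tested for any of the 3. The targets share no libraries, though they share cells and treatment.

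GADD45B, a stress-induced regulator of p38 and JNK signalling, had the largest YAP1 rise among members, 4.75 ± 0.23 SE on the log2 scale, and its RAD21 rose by 4.27 ± 0.32 (edgeR adjusted p 7.9e-10 and 0.00013). At chr19:2476257-2477466 its H3K27ac was 27.6 and 26.0 CPM in vehicle and 8.33 and 6.16 CPM in sorbitol. TUBB4B, a beta-tubulin gene, held 22.2 and 22.5 CPM of H3K27ac in vehicle and 5.78 and 7.08 CPM in sorbitol (chr9:137241622-137242229). Its CTCF went from 1.86 and 3.07 to 85.4 and 97.6 TMM-scaled CPM, a log2 rise of 5.26 ± 0.24 (edgeR adjusted p 5.9e-14), and its RAD21 and YAP1 rose by 4.90, the largest RAD21 rise among members, and 4.03. TUBB4B had 4 and 3 RAD21 counts in vehicle. It passed the RAD21 count filter only through its sorbitol libraries, so only a rise could be called there. GLUL, the glutamine synthetase gene, had 223 and 213 CPM of H3K27ac in vehicle and 78.5 and 78.6 CPM in sorbitol (chr1:182389853-182392558). CTCF there went from 17.1 and 14.4 to 174 and 198, RAD21 from 13.5 and 15.9 to 95.6 and 101, and YAP1 from 16.4 and 17.4 to 94.7 and 88.0 TMM-scaled CPM. The rule that named GADD45B and TUBB4B asked for libraries that do not overlap, so their separation is no finding.

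Of the other members that rose for all 3 targets, 3 are given as examples chosen after their values were seen. ACTG1 encodes a cytoplasmic actin, and at chr17:81511925-81513214 its log2 rises were 3.802 for CTCF, 2.76 for RAD21 and 1.94 for YAP1. RHOB is a small GTPase of the actin cytoskeleton with log2 rises of 3.04, 2.67 and 2.13 in the same order. OAZ1, an inhibitor of polyamine synthesis, rose by 3.19, 3.15 and 1.96. H3K27ac at these promoters had ratios of 0.402, 0.327 and 0.338.

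The largest CTCF gains were at promoters with almost no CTCF signal in vehicle. TMEM238, a small membrane protein gene, went from 1.40 and 1.42 to 106 and 104 TMM-scaled CPM (log2 6.18 ± 0.24, edgeR adjusted p 2.5e-15), with H3K27ac at 7.96 and 6.42 CPM in vehicle and 4.16 and 3.54 CPM in sorbitol. FBLL1, a fibrillarin-like gene, had 0 and 1 CTCF counts in vehicle and 13 and 22 in sorbitol (edgeR adjusted p 1.5e-05). WDR1 went from 0.155 and 0.710 to 17.6 and 20.1 TMM-scaled CPM (log2 5.51 ± 0.58, edgeR adjusted p 1.2e-07). Of the members tested, 9 lay below 1 TMM-scaled CPM of CTCF in both vehicle libraries. These intervals, and TMEM238 with 9 and 6 vehicle counts, passed the count filter only through their sorbitol libraries. They could therefore be called only as rises, and their rising is not a separate result. The same limit applies to RAD21 and YAP1, and the number of such intervals was not counted.

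Some other large rises rested on single libraries and some did not. CD81, a tetraspanin gene, rose for RAD21 by 3.97 (edgeR adjusted p 0.013), from 2.56 and 0 to 13.8 and 43.2 TMM-scaled CPM, and without sorbitol library 2 the adjusted p was 0.15. TNFSF9, the gene of a cytokine of the TNF family, rose for RAD21 by 3.46 (adjusted p 0.0014 in edgeR), a call that was kept under each alternative in which it could be tested. NXF1, the main mRNA export receptor, rose for YAP1 by 3.45 (edgeR adjusted p 0.0053), which became 0.10 without vehicle library 1 and 0.16 without sorbitol library 2. CD81 for RAD21 and NXF1 for YAP1 passed the count filter only through their sorbitol libraries, so only a rise could be called there. JUND rose for YAP1 by 3.10 and is described with the immediate early genes.

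Falls were 39 for CTCF, 3 for RAD21 and 14 for YAP1. Some intervals, as SPDYE16 for CTCF and CMTR2 for YAP1, passed the count filter only through vehicle, so only a fall could be called. SPDYE16, of a family with near-identical copies and therefore uncertain, went from 11.3 and 10.9 to 0 and 0.981 TMM-scaled CPM of CTCF (edgeR adjusted p 5.4e-05). ZC3H10, a zinc finger gene without a ZNF symbol, fell from 25.5 and 25.8 to 5.69 and 1.47 (log2 -2.85 ± 0.39, edgeR adjusted p 7.1e-06), and LY6G5C fell by 2.32 on the log2 scale. The fall at MAP1LC3C (edgeR adjusted p 0.039) was lost without any of the 4 CTCF libraries, with adjusted p from 0.16 to 0.41. PCSK6, a proprotein convertase gene, fell for all 3 targets, by 1.46 for CTCF, 2.79 for RAD21 and 2.54 for YAP1 on the log2 scale. Its CTCF adjusted p of 0.023 became 0.38 without vehicle library 1 and 0.13 without sorbitol library 1, and its RAD21 adjusted p of 0.013 became 0.057 without vehicle library 2. The remaining RAD21 falls were SLC25A1, the mitochondrial citrate carrier (-2.82, edgeR adjusted p 0.024), and TOR2A (-1.48, adjusted p 0.046 in edgeR), and each lost its call without vehicle library 2, at 0.065 and 0.36. For YAP1, CMTR2 had no count in either sorbitol library, and STK40 and ADNP2 fell by 2.23 and 1.89 on the log2 scale (edgeR adjusted p 0.042, 0.036 and 0.036). None of these 3 calls held without either vehicle library, with adjusted p from 0.18 to 0.66.

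Members with the lowest H3K27ac ratios rose most often. Of the 447 members with ratios of 0.130 to 0.452, 64.0% of those tested rose for CTCF, 24.2% for RAD21 and 21.5% for YAP1. Of the 447 with ratios of 0.535 to 0.59, these shares were 53.3%, 10.9% and 6.44%. The middle 447 had 58.8%, 9.65% and 8.57%. Across members, the log2 H3K27ac ratio and the log2 fold change had Pearson correlations of -0.257 for CTCF (958 members), -0.256 for RAD21 (689) and -0.256 for YAP1 (948), and Spearman correlations of -0.200, -0.182 and -0.167. The points of each correlation share the same libraries, and several share a promoter.

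**Figure D4:**
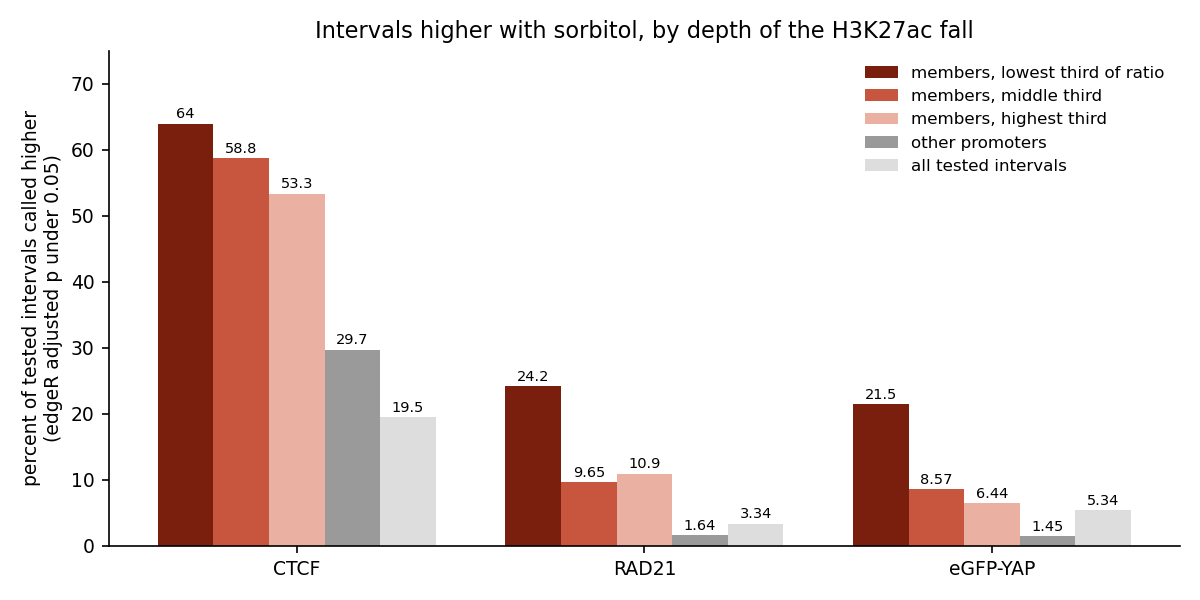
Percent of tested intervals called higher with sorbitol for CTCF, RAD21 and YAP1, in members grouped by H3K27ac ratio (447 members per group), in other counted promoters and in all tested intervals. The bars are highest in the group with ratios of 0.130 to 0.452 (64.0%, 24.2% and 21.5%), above other promoters at 29.7%, 1.64% and 1.45%.

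The share of members differed widely between 17 gene lists, which were read against the 8.19% of all counted promoters. Histone genes (30 of 60 intervals), genes of the integrated stress response (32.1%) and immediate early genes (27.3%) had the highest shares. Ribosomal protein genes (6.72%), genes of the mitochondrial ribosome and respiratory chain (4.13%), YAP target genes (2.70%) and proteasome genes (2.22%) had the lowest. The 203 members in any list rose for CTCF, RAD21 and YAP1 in 71.6%, 25.2% and 25.6% of those tested, and the 1138 members in no list in 55.8%, 12.5% and 9.10%. Counts of rises per list below stand beside 58.6%, 14.8% and 12.0% of all tested members, in that order. Over all tested intervals the shares were 19.5%, 3.34% and 5.34%.

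**Figure D5:**
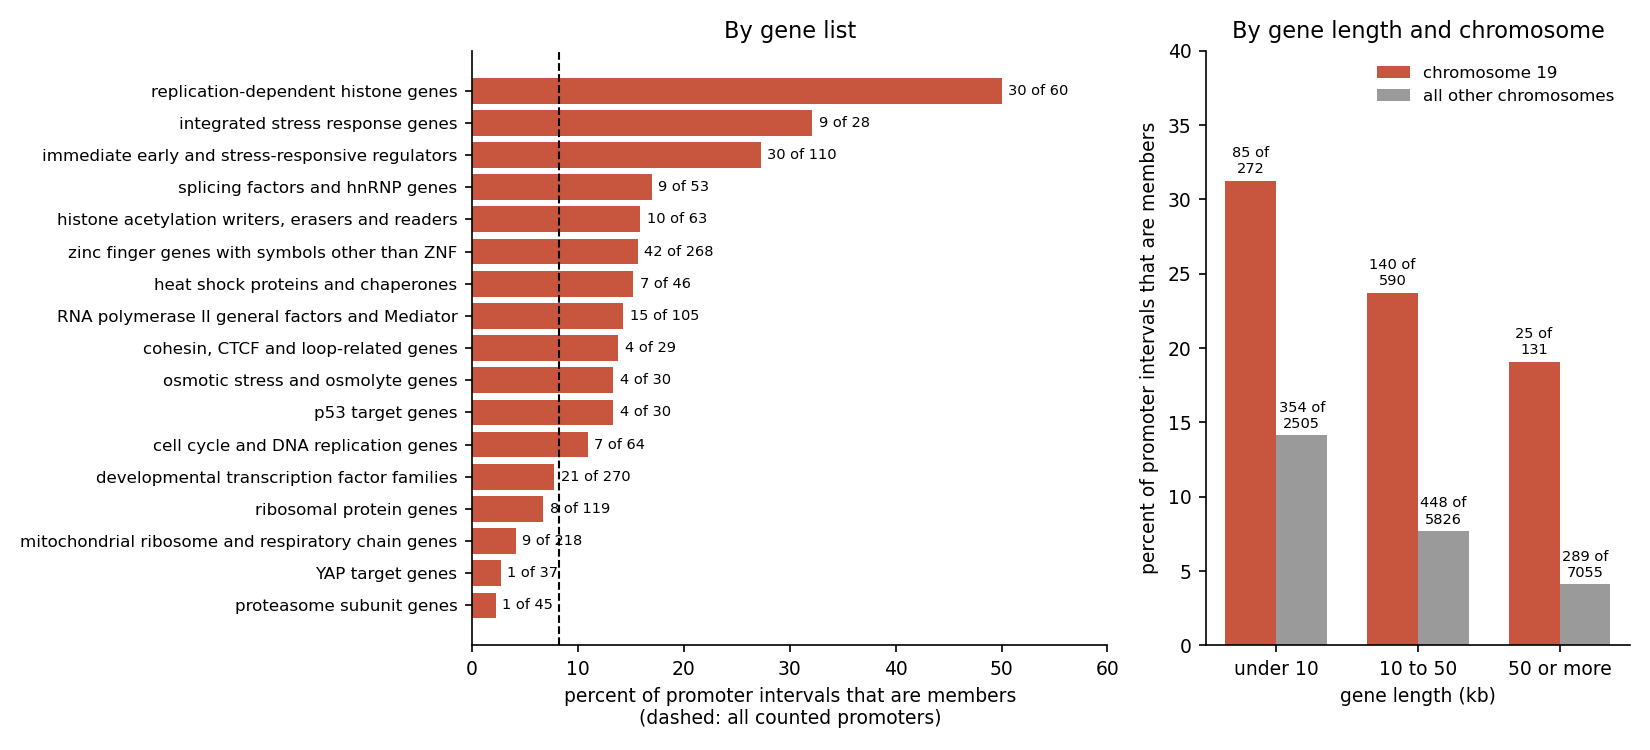
Left, percent of counted promoter intervals that were members in each gene list, with the counts beside the bars and a dashed line at 8.19%, the share over all counted promoters. Right, the same percent for chromosome 19 and for all other chromosomes in 3 classes of gene length, where chromosome 19 is higher in each (31.3% against 14.1% for genes under 10 kb).

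Among the genes of the transcription machinery, 15 of 105 counted intervals were members (14.3%). HEXIM1 encodes the inhibitor that holds the elongation kinase P-TEFb inactive, and its H3K27ac was 82.4 and 83.3 CPM in vehicle and 19.1 and 10.5 CPM in sorbitol (chr17:45148169-45150050). CTCF at this interval went from 44.1 and 55.6 to 264 and 284, RAD21 from 22.6 and 37.2 to 161 and 117, and YAP1 from 46.5 and 42.4 to 270 and 221 TMM-scaled CPM. The log2 rises were 2.47 ± 0.14, 2.26 ± 0.33 and 2.47 ± 0.20 (edgeR adjusted p 2.5e-12, 0.0016 and 6.1e-08). POLR2A, the largest subunit of RNA polymerase II, had a member at chr17:7483767-7484432 with 39.2 and 39.5 CPM of H3K27ac in vehicle and 7.40 and 7.60 CPM in sorbitol. At its next interval (chr17:7484624-7485430) CTCF went from 8.38 and 12.5 to 136 and 134 TMM-scaled CPM, and the log2 rises were 3.73 for CTCF, 3.03 for RAD21 and 2.46 for YAP1. NELFB, a subunit of the pausing factor NELF, rose for CTCF by 4.32 at a weakly covered interval (edgeR adjusted p 4.6e-06). That interval passed the count filter only through its sorbitol libraries, so only a rise could be called. In this list 12 of 14 tested members rose for CTCF, 3 of 10 for RAD21 and 4 of 13 for YAP1. Among its tested intervals that were not members, 17 of 72, 0 of 51 and 0 of 79 rose. INTS6, a subunit of the Integrator complex that is not in the list, held 122 and 120 CPM of H3K27ac in vehicle and 27.4 and 28.0 CPM in sorbitol, and rose by 3.04 for CTCF, 1.57 for RAD21 (edgeR adjusted p 0.018, and 0.057 with GC-corrected offsets) and 1.93 for YAP1.

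Of the genes that write, erase and read histone acetylation, 10 of 63 intervals were members (15.9%), and 4 of them belonged to BRD2. The lowest BRD2 interval (chr6:32971555-32973653) held 155 and 163 CPM of H3K27ac in vehicle and 41.5 and 44.6 CPM in sorbitol. There CTCF went from 20.8 and 21.8 to 246 and 260, RAD21 from 24.8 and 14.2 to 99.6 and 110, and YAP1 from 54.7 and 52.7 to 272 and 212 TMM-scaled CPM. At the neighbouring interval chr6:32970737-32971096 H3K27ac had a ratio of 0.332, while the CTCF change was -0.02 ± 0.48 (edgeR adjusted p 0.98). The deacetylase HDAC1 and the corepressor SIN3A had ratios of 0.558 and 0.459 and rose for CTCF by 1.45 and 1.48. In all, 5 of 8 tested members of this list rose for CTCF, 1 of 7 for RAD21 and 2 of 9 for YAP1. The CTCF share was near the 58.6% of all tested members. Its tested intervals that were not members rose at 11 of 43, 1 of 36 and 0 of 43.

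Immediate early and stress-responsive regulators are genes that cells switch on within minutes of a signal, and 30 of their 110 counted intervals were members. CTCF rose at 25 of 27 tested, with a median log2 change of 2.34, RAD21 at 12 of 24 and YAP1 at 11 of 26. At tested intervals of the list that were not members, CTCF rose at 35 of 64, RAD21 at 3 of 55 and YAP1 at 5 of 63. JUND, a subunit of AP-1, had H3K27ac of 21.5 and 26.6 CPM in vehicle and 6.59 and 7.73 CPM in sorbitol (chr19:18280131-18280681). CTCF at JUND went from 4.66 and 6.15 to 86.9 and 88.8 TMM-scaled CPM (log2 4.05 ± 0.21, edgeR adjusted p 4.9e-13), and RAD21 and YAP1 rose by 2.22 and 3.10. EGR1, a zinc finger factor of the first wave, had 117 and 116 CPM in vehicle and 50.1 and 51.6 CPM in sorbitol at chr5:138463916-138466561, and rose by 1.94, 1.93 and 2.32. DUSP1, a phosphatase that turns off MAP kinases, had an H3K27ac ratio of 0.584 and rose for CTCF by 2.34 and RAD21 by 1.79, and ATF3 had a ratio of 0.554 and rose by 2.40 and 1.82. ID2, which blocks the DNA binding of helix-loop-helix factors, had an interval with a ratio of 0.282 whose YAP1 change was -0.13 ± 0.80 (edgeR adjusted p 0.95). EGR2 was the single CTCF fall in this list (-1.18, edgeR adjusted p 0.025), and it lost its call without vehicle 1, vehicle 2 or sorbitol 1 (adjusted p from 0.067 to 0.20).

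Genes of the integrated stress response, which cells use when translation is curbed, had 9 members among 28 intervals. The DDIT3 and MBD6 promoter interval chr12:57519400-57521099, whose nearest start belongs to ENSG00000285133, held 139 and 142 CPM of H3K27ac in vehicle and 41.3 and 39.5 CPM in sorbitol. DDIT3 encodes the stress factor CHOP, and CTCF, RAD21 and YAP1 rose at this interval by 3.58, 1.92 and 1.35. In the adjacent interval chr12:57521671-57521973 H3K27ac was 24.5 and 22.2 CPM in vehicle and 5.90 and 5.77 CPM in sorbitol, and the CTCF change was -0.31 ± 0.56 (edgeR adjusted p 0.68). DDIT4, an inhibitor of mTORC1, held 249 and 248 CPM in vehicle and 103 and 94.5 CPM in sorbitol and rose for CTCF by 2.306, while its RAD21 and YAP1 changes of 0.76 and 0.37 did not pass (edgeR adjusted p 0.15 and 0.29). CHAC1, which degrades glutathione, rose for CTCF by 3.24, and SLC7A5, an amino acid transporter, rose by 2.70, 2.26 and 1.60 for the 3 targets in that order. CTCF rose at 7 of 8 tested members, and RAD21 and YAP1 at 2 of 7 and 2 of 8. At tested intervals of the list that were not members, the rises were 5 of 16, 2 of 13 and 3 of 19.

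Other stress lists held few members. Heat shock genes had 7 of 46 (15.2%), and all 5 of those tested rose for CTCF and for YAP1. They were 1 interval of DNAJB1, 1 of HSPA8 and 3 of HSPA1A and HSPA1B, which are near-identical copies and therefore uncertain. Each of these 5 YAP1 rises was lost when some single library was left out, as at DNAJB1, where the edgeR adjusted p of 0.037 became 0.37 without vehicle library 1, 0.38 without vehicle library 2 and 0.36 without sorbitol library 2. Of the p53 target genes 4 of 30 were members, and all 4 rose for CTCF. They were PMAIP1 and SERTAD1, and both intervals of the cell death gene BBC3, with log2 rises from 1.13 at SERTAD1 to 2.85 at BBC3. Among tested p53 target intervals that were not members, 8 of 24 rose for CTCF. Among such heat shock intervals, 16 of 32 rose for CTCF and 0 of 31 for YAP1. Osmotic stress genes had 4 of 30, at TSC22D1, TSC22D3 and the SLC5A3 promoter that is shared with MRPS6. SLC5A3 imports the osmolyte myo-inositol, and H3K27ac at chr21:34074388-34074886 was 12.5 and 11.6 CPM in vehicle and 5.44 and 4.46 CPM in sorbitol. The second SLC5A3 interval was the only tested member of this list to rise for CTCF (0.85, edgeR adjusted p 0.018), and its sign turned to -0.55 with GC-corrected offsets.

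Replication-dependent histone genes, which are short, lack introns and are expressed in S phase, had 30 members among 60 intervals. Their mapped reads are uncertain where copies are near-identical, as in the duplicated H2AC18 and H2AC19 and H3C14 and H3C15. H2AC19 (chr1:149851192-149852148) held 75.2 and 72.2 CPM of H3K27ac in vehicle and 16.8 and 17.04 CPM in sorbitol. H3C14 (chr1:149840143-149841503) held 82.9 and 97.9 CPM in vehicle and 26.0 and 26.3 CPM in sorbitol. At H3C14 CTCF went from 13.3 and 12.1 to 165 and 170 TMM-scaled CPM, and RAD21 and YAP1 rose by 2.01 and 2.09. An H2BC17 interval 765 bases from the start (chr6:27894190-27894768) held 28.1 and 26.2 CPM of H3K27ac in vehicle and 7.06 and 4.59 CPM in sorbitol, and rose for CTCF by 1.96 (edgeR adjusted p 0.0013). Across this list 19 of 25 tested members rose for CTCF, with a median log2 change of 1.96, 6 of 16 for RAD21 and 10 of 25 for YAP1. Of its tested intervals that were not members, 10 of 23, 1 of 10 and 0 of 26 rose.

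Splicing factor genes had 9 members among 53 intervals. SRSF2 held 162 and 147 CPM of H3K27ac in vehicle and 74.0 and 70.1 CPM in sorbitol and rose by 3.24 for CTCF, 1.98 for RAD21 and 1.67 for YAP1. SRSF7 rose by 3.12, 2.27 and 1.76, and HNRNPH1, at 210 and 209 CPM in vehicle and 89.6 and 88.3 CPM in sorbitol, rose for CTCF by 1.74. U2AF2 had the lowest ratio of this list, 0.379, and rose for CTCF by 0.75, a call lost with GC-corrected offsets (edgeR adjusted p 0.17). Of these members 7 of 8 tested rose for CTCF, 3 of 7 for RAD21 and 3 of 8 for YAP1. Splicing factor intervals that were tested and not members rose at 15 of 40, 1 of 35 and 1 of 38. Zinc finger genes without a ZNF symbol had 42 of 268 (15.7%), and 19 of 35 tested rose for CTCF, 3 of 26 for RAD21 and 5 of 36 for YAP1. KLF11 (ratio 0.232) and ZBTB4, through the shared POLR2A promoter (ratio 0.191), were the lowest of these. The CTCF share of this list was near the 58.6% of all tested members. Its tested intervals that were not members rose at 55 of 162, 2 of 113 and 0 of 164.

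The remaining lists had member shares from 2.22% to 13.8%. Cell cycle genes had 7 of 64 (10.9%), and CCNE1, the cyclin that starts S phase, had H3K27ac of 42.8 and 40.2 CPM in vehicle and 22.6 and 16.4 CPM in sorbitol, and rose for CTCF by 1.77, a call lost with GC-corrected offsets (edgeR adjusted p 0.37). Among genes for cohesin, CTCF and loop-related proteins 4 of 29 were members (13.8%), all at MAZ, and 2 of these rose for CTCF. The MAZ interval chr16:29807498-29808204 held 129 and 126 CPM in vehicle and 69.9 and 57.1 CPM in sorbitol, with a CTCF change of -0.39 ± 0.26 (edgeR adjusted p 0.22). Developmental factors had 21 of 270 (7.78%), of which PAXX and FOXRED2 entered only by their symbols. Among ribosomal protein genes 8 of 119 were members, RPS19BP1 and RPS6KA2 by symbol only. RPL41 had 91.8 and 93.3 CPM in vehicle and 43.7 and 38.4 CPM in sorbitol and rose for CTCF by 1.22. NDUFAF3, an assembly factor of respiratory complex I, shares its promoter with DALRD3 and rose for CTCF by 4.11 (edgeR adjusted p 1e-10). PSMA7 was the only proteasome member and NT5E the only YAP target among members. NT5E had H3K27ac of 22.004 and 20.04 CPM in vehicle and 12.5 and 7.996 CPM in sorbitol, and its YAP1 change was 0.34 ± 0.63 (edgeR adjusted p 0.82).

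Members sat on short genes. The median length of the nearest gene was 17.6 kb for members and 43.3 kb for other promoters, and 32.7% against 15.5% were under 10 kb. From genes under 5 kb to genes over 100 kb, the share of members went from 18.05% to 3.95%. Chromosome 19 held 250 members, 25.2% of its 993 counted promoters, followed by chromosome 21 (17.8%), chromosome 17 (12.6%) and chromosome 16 (11.5%), with chromosome 3 lowest at 3.22%. The excess on chromosome 19 was present within classes of gene length: 31.3% against 14.1% elsewhere for genes under 10 kb, 23.7% against 7.69% from 10 to 50 kb, and 19.1% against 4.10% above 50 kb. Chromosome 19 members rose for CTCF in 70.8% of those tested, beside 61.7% of other promoters on that chromosome, 55.1% of members elsewhere and 27.9% of other promoters elsewhere. For RAD21 13.04% of tested members on chromosome 19 and 15.3% of members elsewhere rose, and for YAP1 10.7% and 12.4%.

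Member intervals were narrower than other promoters (median 733 against 1015 bp) and somewhat richer in GC (65.9% against 63.6%). Below 50% GC 6.18% of counted promoters were members, and at 75% or more 16.2% were. Of the members 822 lay over an annotated start (61.3%, against 79.6% of other promoters), 187 upstream (13.9% against 7.65%) and 332 downstream (24.8% against 12.8%). CpG observed to expected ratios were 0.718 and 0.735, and 7.98% of members and 9.04% of other promoters lay between divergent starts. Per kb of interval, the median vehicle YAP1 level was 22.9 and 21.9 CPM in members and 17.3 and 16.7 CPM in other promoters. This was not particular to YAP1: CTCF stood at 11.7 and 10.8 CPM against 9.59 and 8.89 CPM. RAD21 stood at 17.7 and 13.6 CPM against 14.7 and 11.6 CPM.

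The shares of rises were also set beside those of other promoters within classes of GC content, gene length, vehicle H3K27ac and position. At GC of 65% or more 62.8% of tested members and 37.3% of other promoters rose for CTCF, and below 65% GC 51.8% and 23.1% did. For genes under 10 kb the CTCF shares were 64.9% and 38.6%, the RAD21 shares 20.9% and 2.33%, and the YAP1 shares 16.2% and 2.34%. For genes of 50 kb or more the CTCF shares were 41.6% and 22.6%. At vehicle H3K27ac of 50 CPM or more, where the 365 members were all tested for CTCF, 73.7% of members and 33.0% of other promoters rose for CTCF, 19.8% and 1.32% for RAD21, and 19.5% and 1.25% for YAP1. Members over a start rose for CTCF in 64.0% of those tested, those downstream in 44.9% and those upstream in 38.3%, and other promoters in 30.6%, 23.99% and 21.8% in the same order. For YAP1 upstream of a start, 4 of 97 tested members rose (4.12%), beside 15 of 438 other promoters (3.42%), so the shares hardly differed there.

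RefSeq promoter windows were matched for 878 of the 1116 member genes and for 8860 of 11031 genes without a member, and the same search ran over all 35116 windows of 300 bases. GGGCGG, the GC box of SP and KLF factors, was found in 77.4% of member genes, 71.0% of the other genes and 45.0% of all windows. CCAAT was found in 41.1%, 35.3% and 34.6%, and CCAATCA, which contains it, in 11.6%, 8.53% and 6.95%. TATAAA was found in 9.34% of member genes, 5.27% of other genes and 11.5% of all windows. CCGGAAG of ETS factors was rarer in member genes (12.8%, 17.6% and 10.3%), as were TCTCGCGA (1.03%, 2.38% and 1.15%) and GGAATG, the core that TEAD factors bind (8.20%, 10.7% and 14.03%). CACGTG (9.23% and 10.2%), GTTGCCA (2.96% and 3.63%), CGCATGCG (3.30% and 3.67%), AAGATGGC (4.90% and 4.86%), TGACGTCA (3.19% and 3.26%), TGACTCA (2.96% and 2.63%) and GAANNTTC (5.58% and 4.36%) differed less between member genes and other genes, and stood at 7.26%, 4.08%, 2.02%, 2.89%, 1.85%, 4.95% and 6.77% of all windows in that order. All letters were searched on both strands, and a match is a description of the window and not a bound site.

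H3K27ac was also lower at other intervals of the same genes, which the rule did not select but which come from the same libraries. The 688 other promoter intervals of member genes had a median ratio of 0.820, and 73.1% lay below 1, against a median of 1.04 and 44.2% for the 14350 promoter intervals of genes without a member. The 610 intervals outside promoters but within 10 kb of a member gene's start had a median ratio of 0.748, 73.3% lay below 1 and 29.2% were at or below 0.59. Around genes without a member, the 4249 such intervals had a median of 1.12, and 5.51% were at or below 0.59.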

How the data were processed

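The authors deposited a table of whole-number counts for each peak interval in 16 CUT&Tag libraries; its values are unscaled. The submitters' processing notes name hg38, BWA 0.7.17, MACS2 2.2.6, bedtools 2.31.1, Trim Galore, FastQC, SAMtools and Picard, with no roles stated. CTCF, RAD21 and YAP1 were each fitted on their own 4 libraries with edgeR 4.0.16 (quasi-likelihood, robust, TMM, filterByExpr, two-sided), with Benjamini-Hochberg adjustment over all tested intervals. H3K27ac is CPM on totals over chromosomes 1 to 22 and X, and the others are TMM-scaled CPM. The ± of a log2 fold change is its standard error, and floors and small counts cover counting error only.

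Members, lists and motifs were chosen with earlier results of these data known. The naming rule took the 12 lowest ratios, the 6 highest vehicle levels, the 4 largest rises and falls per target whose libraries do not overlap, the 2 lowest ratios per list and the threshold neighbours. Genes outside it were chosen after their values were seen. Gene lists match symbols, some by prefix. Alternatives were DESeq2 1.42.0, its size factors, total scaling, other count filters, GC-corrected offsets, a replicate block and each library left out. Scripts were tested on simulated data.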

Additional observations from a re-analysis of the deposited data

How the results depend on the processing

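Of 117 alternative values of the counts and medians, 66 stayed within the limit set, 47 moved and 4 changed sign. With DESeq2, CTCF, RAD21 and YAP1 falls were 23, 1 and 6. Scaling to totals gave 78 CTCF falls with a median of 0.61, 57 RAD21 rises with a median of 0.43, and 60 YAP1 rises, 196 falls and a median of -0.63. Without a count filter the medians were 0.77, 0.48 and -0.33, with 73 YAP1 falls. At a mean of at least 50 counts CTCF had 301 rises (median 0.99), RAD21 33 rises and 5 falls (0.37), and YAP1 31 falls (0.067). GC-corrected offsets gave CTCF 306 rises, 97 falls and 0.36, RAD21 66 rises and 0.41, and a YAP1 median of 0.0104. Deviations from group means in libraries with the same replicate number were nearly uncorrelated (correlations -0.0085, -0.0022 and 0.0053). Many tested intervals had few counts, where counting error can hide a shared source, so this cannot show that replicates were unpaired. With the replicate block, CTCF had 517 rises and 31 falls, RAD21 77 and 2, and YAP1 102 and 9; with the replicate block and GC-corrected offsets together CTCF had 286 and 80 (median 0.34), RAD21 65 and 5 (0.43), and the YAP1 median was -0.0021.

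Leaving out each library in turn gave 445 to 531 CTCF rises, 23 to 43 falls and medians of 0.99 to 1.11. For RAD21 it gave 103 to 138 rises, 0 to 5 falls and medians of 0.69 to 0.84; without vehicle library 2, where edgeR called no fall, 252 members had an unadjusted p under 0.05 in either direction. For YAP1 it gave 66 to 125 rises, 1 to 46 falls and medians of -0.13 to 0.059. A lone library is then assumed to vary like the other group.

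At a ratio of at most 0.50 the members number 682, and the other settings of the rule gave 1124 to 1969. Of 1636 alternative values for the named members, 1483 kept their call, 151 lost it and 2 changed sign, both at the second SLC5A3 interval for CTCF (-0.55 and -0.54 with GC-corrected offsets, without and with the block). Depth limits RAD21 most: 689 of 1341 members could be tested, and 315 were tested for no target, so no change was detectable there.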
